A study of Homo sapiens with 8 samples.

Results

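The genes of cholesterol synthesis, uptake, transport, export and storage were described in docetaxel resistant and sensitive variants of 2 prostate cancer cell lines. The 32 genes were a list of pathway genes drawn up with earlier results of these data known and were matched by symbol to the 60554 gene rows of the count files, and 31 of them were among the 20238 genes with enough counts to be tested. The exception was NPC1L1, the sterol importer of the intestine, with 2 to 14 counts per library. The data were 8 bulk RNA-seq libraries in 4 groups, 2 each for DU145 resistant, DU145 sensitive, PC3 resistant and PC3 sensitive cells. DU145 and PC3 are human prostate cancer lines established from metastases, and all cells were grown in RPMI 1640 with fetal bovine serum and penicillin-streptomycin. Resistant cells were kept in medium with 10 nM docetaxel, a taxane that stabilises microtubules, and sensitive cells in medium with 0.1% DMSO, the solvent of the drug. Serum carries lipoproteins, and the labels name no lipoprotein-depleted medium for any group. For single cells of these lines, the paper describes a move to docetaxel-free medium before harvest. The sources used here do not give whether the drug was removed before harvest of these bulk libraries, so the drug and the resistant state cannot be told apart. No source says whether the libraries within a group came from different cultures, and p-values therefore reflect the spread between the libraries at hand, which may be technical only.

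Cells make cholesterol from acetyl-CoA through mevalonate, the isoprenoid diphosphates, squalene and lanosterol. When the membrane of the endoplasmic reticulum is poor in cholesterol, the escort protein SCAP carries the SREBP transcription factors to the Golgi, where they are cut free to enter the nucleus and raise the genes of synthesis and uptake, and INSIG proteins hold the complex back when sterols are plentiful. Oxysterols activate the nuclear receptor LXR, which raises the export pumps ABCA1 and ABCG1 and the ubiquitin ligase MYLIP, which marks lipoprotein receptors for degradation. SREBP-2, made from SREBF2, is best known for sterol genes and SREBP-1, made from SREBF1, for fatty acid genes.

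The promoters of 7 members are shown because these genes stand for the patterns described in the results. SREBF2, MVD and ABCA1 were higher in 1 line and lower in the other. INSIG1 and STARD4 were called in PC3 but not in DU145, and INSIG2 and MSMO1 in DU145 but not in PC3. Each had a difference between the lines that passed its own test. INSIG1 was close to the first pattern, at -1.18 ± 0.42 in DU145 (adjusted p = 0.0575 by edgeR's test) and 1.21 ± 0.42 in PC3. The differences of INSIG2 (adjusted p = 0.0496) and MSMO1 (adjusted p = 0.0493) were close to the threshold of 0.05 in edgeR's test, and 9 and 7 of 13 alternative analyses gave no call for them. Sequences are from RefSeq (GRCh38.p14), 5′ to 3′ on the strand of the gene, from position -215 to position -26 relative to the transcription start, and capitals mark matches on either strand to CCAAT (the motif of the factor NF-Y), CACNCCAC (a core of the sterol regulatory element) and CACGTG (the E-box).
SREBF2: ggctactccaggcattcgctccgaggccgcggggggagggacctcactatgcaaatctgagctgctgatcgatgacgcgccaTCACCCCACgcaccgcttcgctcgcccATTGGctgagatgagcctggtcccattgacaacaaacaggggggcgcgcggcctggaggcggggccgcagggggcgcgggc
INSIG1: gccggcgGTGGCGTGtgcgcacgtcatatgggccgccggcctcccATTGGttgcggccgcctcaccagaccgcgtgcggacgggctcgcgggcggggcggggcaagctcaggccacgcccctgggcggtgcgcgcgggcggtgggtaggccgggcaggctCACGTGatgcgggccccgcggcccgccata
INSIG2: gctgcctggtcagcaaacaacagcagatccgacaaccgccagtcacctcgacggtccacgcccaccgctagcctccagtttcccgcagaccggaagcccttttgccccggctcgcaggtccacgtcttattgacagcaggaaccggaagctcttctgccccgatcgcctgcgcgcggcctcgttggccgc
MVD: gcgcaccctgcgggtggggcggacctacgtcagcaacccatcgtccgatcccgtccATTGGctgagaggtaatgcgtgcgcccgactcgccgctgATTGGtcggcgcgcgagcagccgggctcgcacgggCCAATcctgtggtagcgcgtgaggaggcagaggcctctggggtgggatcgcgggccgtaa
MSMO1: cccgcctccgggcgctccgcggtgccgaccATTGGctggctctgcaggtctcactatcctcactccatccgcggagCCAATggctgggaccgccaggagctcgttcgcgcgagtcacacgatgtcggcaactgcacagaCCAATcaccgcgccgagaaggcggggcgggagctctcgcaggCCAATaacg
STARD4: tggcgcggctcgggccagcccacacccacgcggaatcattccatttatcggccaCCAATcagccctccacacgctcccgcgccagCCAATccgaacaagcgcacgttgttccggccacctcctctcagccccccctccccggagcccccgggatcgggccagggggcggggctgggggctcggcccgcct
ABCA1: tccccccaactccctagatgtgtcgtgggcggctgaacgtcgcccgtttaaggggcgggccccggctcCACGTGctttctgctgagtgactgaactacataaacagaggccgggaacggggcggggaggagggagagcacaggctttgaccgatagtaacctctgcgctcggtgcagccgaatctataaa
The stretches lie at SREBF2 chr22:41832890-41833079 on the plus strand, INSIG1 chr7:155297663-155297852 on the plus strand, INSIG2 chr2:118088256-118088445 on the plus strand, MVD chr16:88663117-88663306 on the minus strand, MSMO1 chr4:165327454-165327643 on the plus strand, STARD4 chr5:111512561-111512750 on the minus strand and ABCA1 chr9:104928181-104928370 on the minus strand. In the full window of 300 bases, from 250 before to 50 after the start, RefSeq gave an entry for 27 of the 32 members, and ACAT2, FDFT1, SQLE, SCARB1 and ABCG1 had none in the table used. CCAAT was in 20 of the 27 (74.1%), against 39.7% of all 27305 genes with a window, and at least 2 matches stood in 1 window of 12 members (44.4%), against 12.9% of all genes. CACNCCAC was in 5 members (18.5% against 7.05%), namely IDI1, SC5D, INSIG1, SREBF2 and ABCA1, and its longer form TCACNCCAC, which overlaps it, in SREBF2 alone (1.39% of all genes). CACGTG was in 5 members (18.5% against 8.77%) and GGGCGG, the motif of the factor Sp1, in 24 (88.9% against 48.3%), where it is not capitalised. The MVD and MSMO1 stretches held CCAAT matches 3 and 4 times, and the INSIG2 stretch held no match. These are matches of letters and were not tested as sites.

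Total counts ranged from 31685148 to 43045127 per library, and the 32 genes took 0.193% and 0.231% of the counts in DU145 resistant libraries, against 0.334% and 0.402% in DU145 sensitive libraries. In PC3 they took 0.313% and 0.223% in resistant libraries, against 0.183% and 0.181% in sensitive libraries. All 8 epithelial markers reached 1 CPM (counts scaled to library size by edgeR with TMM factors) in at least 1 library. Their sum was 370 to 639 CPM in DU145 resistant libraries, against 3180 to 5000 CPM in DU145 sensitive libraries, and 1630 to 1670 CPM in PC3 resistant libraries, against 1610 to 1760 CPM in PC3 sensitive libraries. Of 7 prostate luminal markers 4 reached 1 CPM, with sums of 34.8 to 35.0 CPM in DU145 resistant, 21.2 to 21.9 CPM in DU145 sensitive, 57.5 to 80.5 CPM in PC3 resistant and 354 to 425 CPM in PC3 sensitive libraries. KLK2 and KLK3 were at 0 in every library. CDH1, an epithelial marker, was at 0.36 and 0.47 CPM in DU145 resistant libraries, against 24.2 and 20.9 CPM in DU145 sensitive libraries, and at 6.12 and 4.95 CPM in PC3 resistant libraries, against 1.07 and 0.81 CPM in PC3 sensitive libraries. The close PC3 sums hid epithelial markers that moved apart, with KRT7 at 476 and 292 CPM in PC3 resistant libraries, against 799.7 and 744 CPM in PC3 sensitive libraries, and CLDN4 at 247 and 359 CPM in PC3 resistant libraries, against 68.5 and 82.6 CPM in PC3 sensitive libraries. Summed endothelial markers (2 of 5 reached 1 CPM) were at 20.6 to 49.3 CPM in PC3 resistant libraries, against 7.34 to 7.91 CPM in PC3 sensitive libraries, and at 0.333 to 0.454 CPM in DU145 resistant libraries, against 0.958 to 1.40 CPM in DU145 sensitive libraries. Among them KDR was at 7.13 and 24.3 CPM in PC3 resistant libraries, against 0.33 and 0.16 CPM in PC3 sensitive libraries. Summed leukocyte markers (2 of 8 reached 1 CPM, and CD3E was at 0) were at 3.05 to 9.14 CPM in PC3 resistant libraries, against 1.34 to 2.53 CPM in PC3 sensitive libraries, and at 1.51 to 1.61 CPM in DU145 resistant libraries, against 0.958 to 1.15 CPM in DU145 sensitive libraries. Over all libraries the sums were 5.24 to 36.3 CPM for fibroblasts (4 of 6) and 0.224 to 0.953 CPM for hepatocytes and enterocytes (0 of 7, and FABP1 was at 0). The part of these marker differences in the results was not tested, and in bulk samples fewer cells of a type and less RNA per cell cannot be told apart.

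In DU145 most of the pathway was lower in resistant cells, and in PC3 the genes that changed were mostly higher. Within each line, resistant cells were tested against sensitive cells by edgeR's quasi-likelihood test, with Benjamini-Hochberg adjustment over all genes tested and a threshold of 0.05, and changes are log2 fold changes with standard errors. In DU145, 17 of the 31 tested members were lower, against 15.4% of all genes, 2 were higher, against 12.4% of all genes, and 12 were not called. The median change was -0.72 over the members, against 0.00 over all genes tested. In PC3, 11 of 31 were higher, against 18.6% of all genes, 3 were lower, against 17.0% of all genes, and 17 were not called. The median was 0.35 over the members, against 0.01 over all genes. Read by library, both DU145 resistant libraries lay below both sensitive libraries for 23 members (32.1% of all genes) and above them for 3 (29.2% of all genes). In PC3 both resistant libraries lay above both sensitive libraries for 14 members (36.1% of all genes), close to the background share, and below them for 8 (35.1% of all genes). Without DU145 sensitive replicate 2, or without DU145 resistant replicate 1, 9 members were lower in DU145, and the median was -0.59 and -0.62 in these cases. Without PC3 resistant replicate 1 the PC3 median was 0.05 with 9 members higher and 4 lower, and without PC3 resistant replicate 2 it was 0.67 with 13 higher and 1 lower. Without PC3 sensitive replicate 2, 6 members were higher and 1 was lower in PC3.

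**Figure D1:**
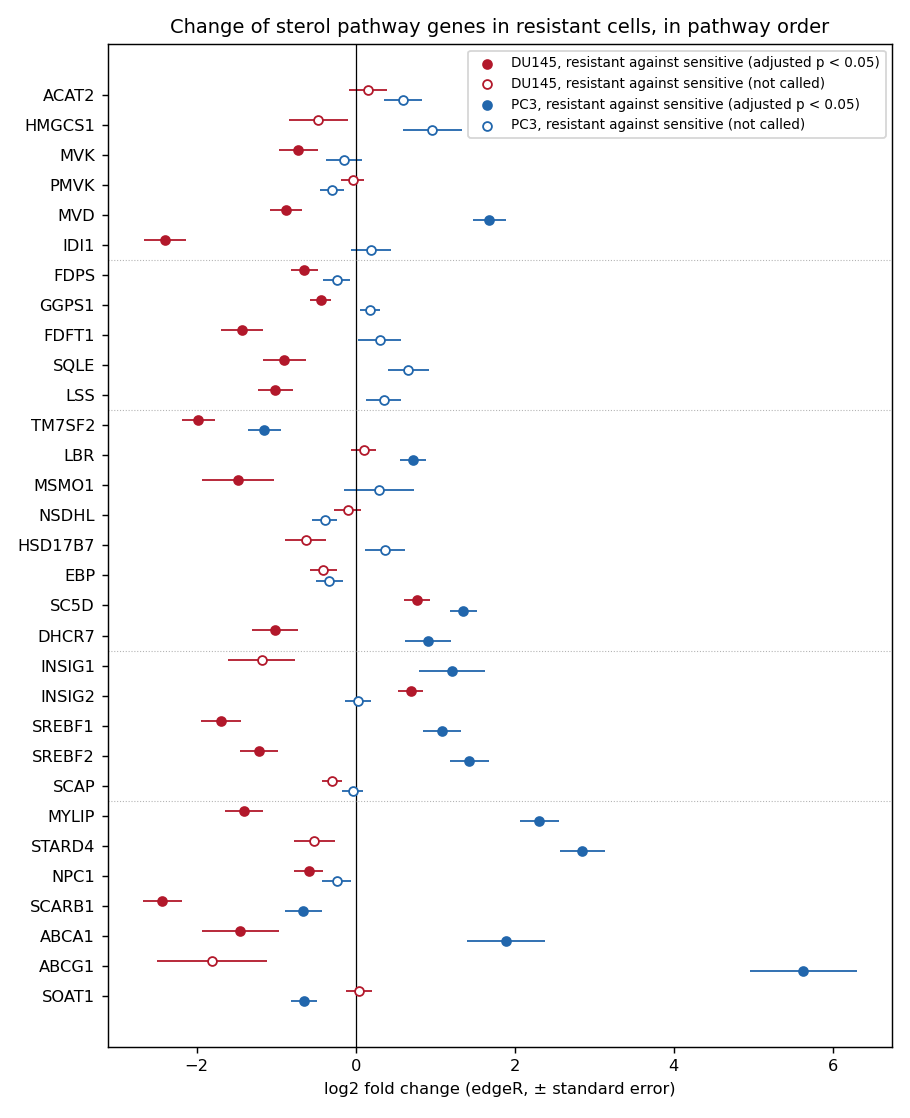
Changes of the 31 tested genes in pathway order, as log2 fold change on the x axis, resistant against sensitive, for DU145 (red) and PC3 (blue), with bars of 1 standard error and filled points for adjusted p under 0.05. In DU145 17 genes are called below 0 and 2 above, and in PC3 11 are called above 0 and 3 below.

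The first enzymes, from acetyl-CoA to isopentenyl diphosphate, fell in DU145 at 3 of 6 steps (50%, against 15.4% of all genes). In PC3, 1 of the 6 rose (16.7%, against 18.6%), near the share over all genes. IDI1, the isomerase that balances the isoprenoid building blocks, was at 29.2 and 35.0 CPM in DU145 resistant libraries, against 136 and 204 CPM in sensitive libraries, a change of -2.40 ± 0.26 (adjusted p = 9.85e-05). It was at 81.0 and 49.1 CPM in PC3 resistant libraries, against 62.9 and 51.4 CPM in sensitive libraries, where the groups overlap (0.19 ± 0.25, adjusted p = 0.602). The fall in DU145 thus left IDI1 below every other library of the series. MVD, the mevalonate diphosphate decarboxylase, was at 21.4 and 24.6 CPM in DU145 resistant libraries, against 36.5 and 48.0 CPM in sensitive libraries (-0.88 ± 0.20, adjusted p = 0.00866). Its PC3 level was 87.1 and 59.8 CPM in resistant libraries, against 23.6 and 22.3 CPM in sensitive libraries (1.68 ± 0.21, adjusted p = 0.000149). MVD is the gene of this stretch with groups apart in opposite directions in the 2 lines. Mevalonate kinase, MVK, was at 11.5 and 15.8 CPM in DU145 resistant libraries, against 21.2 and 23.8 CPM in sensitive libraries (-0.72 ± 0.24, adjusted p = 0.0436), and changed by -0.15 ± 0.23 in PC3, which was not called. HMGCS1, which makes HMG-CoA, was at 289 and 113 CPM in PC3 resistant libraries, against 107 and 99.3 CPM in sensitive libraries, and was not called (0.96 ± 0.37, adjusted p = 0.0675). That value rested on which PC3 resistant library was used, at 1.48 and called without replicate 2 (adjusted p = 0.00463), against 0.14 without replicate 1 (adjusted p = 0.776), and 5 of 14 alternatives called it. In the main edgeR fit the thiolase ACAT2, HMGCS1 and the phosphomevalonate kinase PMVK were called in neither line. With no low count filter edgeR called ACAT2 (0.63) and HMGCS1 (1.01) higher in PC3, and HMGCS1 lower in DU145 (-0.46, adjusted p = 0.0448). With the replicate number as a block it called ACAT2 (0.52) and HMGCS1 (0.81) higher in PC3. Without DU145 sensitive replicate 2, MVD in DU145 was at -0.68 (adjusted p = 0.0673). The DU145 call of MVK was lost without either DU145 sensitive library (-0.78 and -0.64), without DU145 resistant replicate 1 (-0.52) and without either PC3 sensitive library (-0.72 each).

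The 4 enzymes that join isoprenoids into squalene and close it to lanosterol, and GGPS1 on a side branch, were all lower in DU145 (100%, against 15.4% of all genes). In PC3 the main edgeR fit called 0 of these 5, against 18.6% of all genes higher and 17.0% lower. SQLE was called higher there by edgeR with no low count filter (0.70, adjusted p = 0.000437). It was also called with the replicate number as a block (0.59, adjusted p = 0.0215 by edgeR). In PC3, SQLE had an unadjusted p under 0.05 and was called by DESeq2 (0.66, adjusted p = 0.041), and without PC3 resistant replicate 2 both SQLE (1.04) and LSS (0.65) were called. Without PC3 resistant replicate 1 they were at 0.15 (adjusted p = 0.679) and -0.025 (adjusted p = 0.953), with no call. FDFT1, the squalene synthase at the branch point towards sterols, was at 93.7 and 127 CPM in DU145 resistant libraries, against 249 and 348 CPM in sensitive libraries (-1.43 ± 0.27, adjusted p = 0.00295). In the PC3 libraries it was at 75.1 and 41.0 CPM in resistant libraries, against 50.6 and 43.6 CPM in sensitive libraries (0.30 ± 0.27, adjusted p = 0.416). LSS, the lanosterol synthase, was at 30.7 and 42.9 CPM in DU145 resistant libraries, against 69.6 and 78.5 CPM in sensitive libraries (-1.01 ± 0.22, adjusted p = 0.00738). The DU145 groups were thus apart for both genes, while in PC3 the groups overlapped for both. SQLE, the squalene epoxidase that is a rate-limiting step after mevalonate, was at 94.3 and 110 CPM in DU145 resistant libraries, against 152 and 229 CPM in sensitive libraries (-0.90 ± 0.27, adjusted p = 0.0274). In PC3 it was at 270 and 145 CPM in resistant libraries, against 132 and 131 CPM in sensitive libraries (0.66 ± 0.26, adjusted p = 0.075). FDPS, which makes farnesyl diphosphate, and GGPS1, which makes the geranylgeranyl diphosphate used to anchor small GTPases, changed by -0.65 ± 0.17 and -0.44 ± 0.13 in DU145, and by -0.24 ± 0.17 and 0.18 ± 0.13 in PC3, where neither was called. Without DU145 sensitive replicate 2, FDPS was at -0.50 and SQLE at -0.59 in DU145, and without DU145 resistant replicate 1 they were at -0.62 and -0.81, with no call in either case. The GGPS1 call in DU145 was lost without any of the 4 DU145 libraries or either PC3 sensitive library, with changes of -0.50 to -0.37.

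The steps from lanosterol to cholesterol were mixed, with 3 of 8 enzymes falling (37.5%, against 15.4% of all genes) and 1 rising (12.5%, against 12.4%) in DU145, and in PC3 1 falling (12.5%, against 17.0%) and 3 rising (37.5%, against 18.6%). TM7SF2 and LBR encode reductases for the same double bond, and LBR also anchors chromatin at the nuclear envelope. TM7SF2 was at 7.84 and 10.8 CPM in DU145 resistant libraries, against 34.2 and 39.5 CPM in sensitive libraries (-1.98 ± 0.21, adjusted p = 8.77e-05). Its PC3 level was 8.97 and 11.0 CPM in resistant libraries, against 23.9 and 20.4 CPM in sensitive libraries (-1.15 ± 0.21, adjusted p = 0.0017). TM7SF2 fell in both lines to a similar level. LBR was at 170 and 150 CPM in PC3 resistant libraries, against 98.3 and 96.5 CPM in sensitive libraries (0.72 ± 0.16, adjusted p = 0.00664), and at 258 and 204 CPM in DU145 resistant libraries, against 241 and 190 CPM in sensitive libraries, which was not called (0.10 ± 0.16). SC5D, the desaturase that makes the sterol ring double bond before the last step, was at 72.1 and 81.1 CPM in DU145 resistant libraries, against 42.1 and 47.5 CPM in sensitive libraries (0.77 ± 0.16, adjusted p = 0.00568). In the PC3 libraries it was at 127 and 92.4 CPM in resistant libraries, against 42.6 and 43.5 CPM in sensitive libraries (1.35 ± 0.17, adjusted p = 0.000156). SC5D was the 1 member called higher in both lines.

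DHCR7, the reductase of the final step, was at 84.1 and 102 CPM in DU145 resistant libraries, against 157 and 221 CPM in sensitive libraries (-1.02 ± 0.29, adjusted p = 0.0223). In PC3 it was at 229 and 113 CPM in resistant libraries, against 99.2 and 82.9 CPM in sensitive libraries (0.91 ± 0.29, adjusted p = 0.0302). The groups were apart in both lines, in opposite directions. MSMO1, which with NSDHL and HSD17B7 strips methyl groups from the sterol ring, was at 21.8 and 48.0 CPM in DU145 resistant libraries, against 55.6 and 140 CPM in sensitive libraries (-1.48 ± 0.45, adjusted p = 0.0309). Its lower sensitive and higher resistant library lay close to each other. MSMO1 changed by 0.29 ± 0.44 in PC3, which was not called, and NSDHL, HSD17B7 and the isomerase EBP were called in neither line. In DU145, DHCR7 was at -0.76 without sensitive replicate 2 and at -0.90 without resistant replicate 1, and MSMO1 was at -0.69 and -1.03, with no call for either gene in either case. MSMO1 was also not called in DU145 by DESeq2 (-1.48, adjusted p = 0.0747). In PC3, DHCR7 was at 0.31 without resistant replicate 1 (adjusted p = 0.354), at 1.04 without sensitive replicate 1 and at 0.78 without sensitive replicate 2, and LBR was at 0.70 without sensitive replicate 2 (adjusted p = 0.055), with no call in these cases.

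Both SREBP genes were lower in DU145 resistant cells and higher in PC3 resistant cells. SREBF2 was at 102 and 164 CPM in DU145 resistant libraries, against 255 and 367 CPM in sensitive libraries (-1.22 ± 0.24, adjusted p = 0.00381). Its PC3 level was 230 and 173 CPM in resistant libraries, against 75.2 and 74.4 CPM in sensitive libraries (1.43 ± 0.24, adjusted p = 0.00122). SREBF2 was thus 2.33-fold lower in DU145 resistant cells and 2.70-fold higher in PC3 resistant cells. SREBF1 was at 31.9 and 46.8 CPM in DU145 resistant libraries, against 145 and 110 CPM in sensitive libraries (-1.69 ± 0.25, adjusted p = 0.000633). In the PC3 libraries it was at 118 and 107 CPM in resistant libraries, against 65.6 and 40.9 CPM in sensitive libraries (1.08 ± 0.24, adjusted p = 0.00606). Neither factor had overlapping groups in either line. INSIG1, itself raised by SREBP in a feedback loop, was at 23.0 and 53.9 CPM in DU145 resistant libraries, against 55.5 and 118 CPM in sensitive libraries, and was not called (-1.18 ± 0.42, adjusted p = 0.0575). The fall was called with no low count filter (-1.18) and with the replicate number as a block (-1.20). The DU145 change of INSIG1 ranged from -1.88 to -0.54 on leaving out a library. In PC3 it was at 90.2 and 61.8 CPM in resistant libraries, against 39.5 and 26.2 CPM in sensitive libraries (1.21 ± 0.42, adjusted p = 0.0433). INSIG2, the other retention protein, went the other way in DU145, at 44.9 and 53.5 CPM in resistant libraries, against 28.1 and 33.1 CPM in sensitive libraries (0.69 ± 0.16, adjusted p = 0.0106). It was at 28.3 and 29.6 CPM in PC3 resistant libraries, against 25.7 and 31.0 CPM in sensitive libraries, where the groups overlap. SCAP was called in neither line. In PC3, INSIG1 lost its call by DESeq2 (1.21, adjusted p = 0.112) and without each of the 4 PC3 libraries in turn, with changes of 0.91 to 1.54, and SREBF1 was at 0.77 without sensitive replicate 2 (adjusted p = 0.0583). In DU145, INSIG2 was at 0.59 without sensitive replicate 1 and also without resistant replicate 2, with no call in either case.

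**Figure D2:**
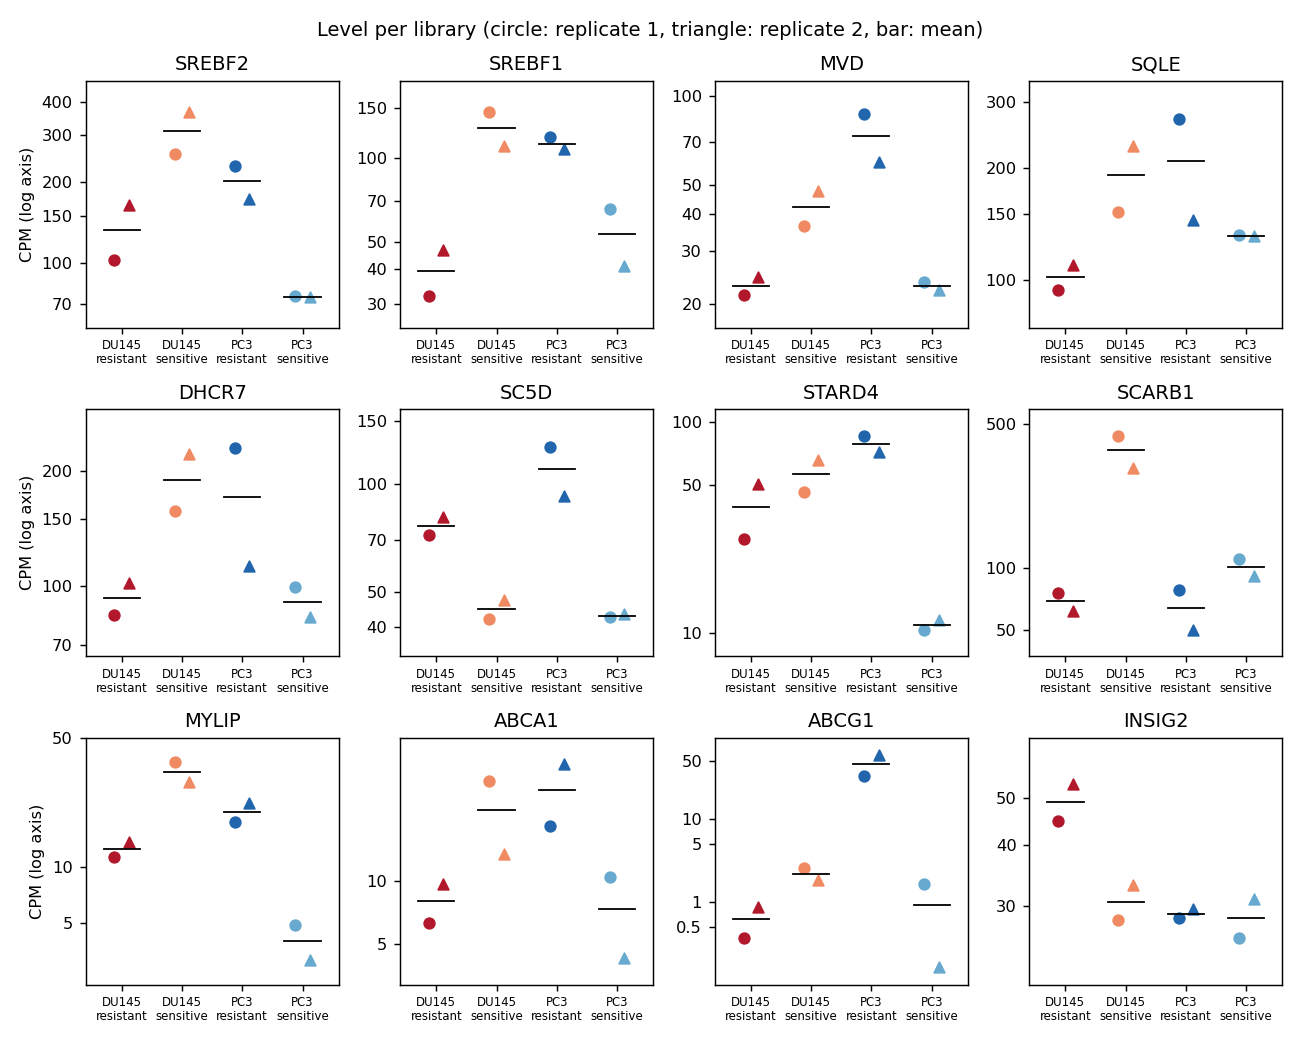
Level of 12 genes in each library, as CPM on a logarithmic y axis, for DU145 resistant, DU145 sensitive, PC3 resistant and PC3 sensitive cells, with circles for replicate 1, triangles for replicate 2 and a bar at the mean. SREBF2, SREBF1, MVD, DHCR7, MYLIP and ABCA1 lie lower in DU145 resistant than in DU145 sensitive libraries and higher in PC3 resistant than in PC3 sensitive libraries, while SC5D lies higher in the resistant libraries of both lines.

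Among the genes of uptake and transport, SCARB1 fell in both lines and STARD4 rose in PC3. SCARB1, the receptor that takes up cholesteryl esters from HDL, was at 76.0 and 62.0 CPM in DU145 resistant libraries, against 438 and 306 CPM in sensitive libraries (-2.43 ± 0.24, adjusted p = 5.56e-05). Its PC3 level was 78.1 and 50.0 CPM in resistant libraries, against 111 and 91.2 CPM in sensitive libraries (-0.66 ± 0.23, adjusted p = 0.0487). The fall was 5.38-fold in DU145 and 1.58-fold in PC3. STARD4, which ferries cholesterol between membranes in the cytosol, was at 85.7 and 72.1 CPM in PC3 resistant libraries, against 10.4 and 11.5 CPM in sensitive libraries (2.85 ± 0.28, adjusted p = 3.16e-05). In DU145 it was at 28.0 and 50.8 CPM in resistant libraries, against 46.7 and 66.2 CPM in sensitive libraries, where the groups overlap (-0.52 ± 0.26, adjusted p = 0.162). STARD4 in PC3 resistant libraries exceeded its level in all other libraries. NPC1, which passes cholesterol out of lysosomes, was at 155 and 205 CPM in DU145 resistant libraries, against 248 and 296 CPM in sensitive libraries (-0.59 ± 0.18, adjusted p = 0.0326), and changed by -0.24 ± 0.18 in PC3, which was not called. NPC1 in DU145 was at -0.47 without sensitive replicate 2 and at -0.42 without resistant replicate 1, with no call. The PC3 call of SCARB1 was lost with RLE scaling (-0.65, adjusted p = 0.0518), with a filter of 1 CPM in 4 libraries (-0.61) and without sensitive replicate 1 (-0.51), sensitive replicate 2 (-0.79) or resistant replicate 2 (-0.37).

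MYLIP, ABCA1 and ABCG1, the 3 members grouped here as LXR targets, were all higher in PC3 resistant cells (100%, against 18.6% of all genes). In DU145 resistant cells 2 of them were lower (66.7%, against 15.4%). MYLIP was at 17.7 and 22.2 CPM in PC3 resistant libraries, against 4.87 and 3.14 CPM in sensitive libraries (2.31 ± 0.25, adjusted p = 6.93e-05). In DU145 it was at 11.4 and 13.7 CPM in resistant libraries, against 37.0 and 29.1 CPM in sensitive libraries (-1.40 ± 0.24, adjusted p = 0.00161). MYLIP had groups apart in both lines. ABCA1, which loads cholesterol onto lipid-poor apolipoproteins, was at 18.3 and 36.0 CPM in PC3 resistant libraries, against 10.4 and 4.25 CPM in sensitive libraries (1.89 ± 0.49, adjusted p = 0.0119). In DU145 it was at 6.24 and 9.66 CPM in resistant libraries, against 30.0 and 13.4 CPM in sensitive libraries (-1.45 ± 0.48, adjusted p = 0.0462). The 2 libraries of each group differed widely for ABCA1. ABCG1, which passes cholesterol on to HDL, had 1467 and 2306 counts (32.9 and 58.2 CPM) in PC3 resistant libraries, against 54 and 5 counts (1.64 and 0.162 CPM) in sensitive libraries (5.63 ± 0.67, adjusted p = 0.000119). In DU145 it had 12 and 31 counts (0.363 and 0.860 CPM) in resistant libraries, against 90 and 65 counts (2.52 and 1.83 CPM) in sensitive libraries. This fall was not called in the main fit (-1.81 ± 0.69, adjusted p = 0.0735 by edgeR). It was called with no low count filter (-1.82) and with the line fitted alone (-1.80, adjusted p = 0.0299 by edgeR). On leaving out a library it ranged from -2.54 to -1.35. ABCG1 was at a low level outside PC3 resistant cells, and its PC3 change was the largest of the 31 members. With 5 counts in PC3 sensitive replicate 2 its size depended on that group, at 8.11 when PC3 sensitive replicate 1 was dropped, or 4.79 on dropping replicate 2, and it was called in both cases. The DU145 call of ABCA1 was lost by DESeq2 (-1.45, adjusted p = 0.113), with a filter of 1 CPM in 4 libraries (-1.45, adjusted p = 0.0509) and without sensitive replicate 1 (-0.73), resistant replicate 1 (-1.18) or resistant replicate 2 (-1.77). In PC3, ABCA1 was not called without sensitive replicate 2 (1.39) or resistant replicate 2 (1.33), and was at 2.68 without sensitive replicate 1.

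SOAT1, which esterifies cholesterol for storage in droplets, was at 64.8 and 53.5 CPM in PC3 resistant libraries, against 91.0 and 94.9 CPM in sensitive libraries (-0.65 ± 0.16, adjusted p = 0.00857). It was at 198 and 164 CPM in DU145 resistant libraries, against 192 and 159 CPM in sensitive libraries, where the groups overlap (0.04 ± 0.16, adjusted p = 0.872). SOAT1 and the export pumps thus changed in opposite directions in PC3. The PC3 value of SOAT1 was -0.63 without sensitive replicate 2 and -0.52 without resistant replicate 2, with no call in either case.

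The difference between the 2 lines was tested as the PC3 change minus the DU145 change, which uses the same libraries as the 2 changes themselves. It was above 0 for 17 of 31 members, against 18.5% of all genes, and below 0 for 2, against 15.9% of all genes, and its median was 1.36 over the members, against 0.03 over all genes. Of the 31 members, 6 were called lower in DU145 and higher in PC3, against 4.08% of all genes. These were MVD, DHCR7, SREBF1, SREBF2, MYLIP and ABCA1. The largest differences were those of ABCG1 (7.44 ± 0.94), MYLIP (3.71 ± 0.35), STARD4 (3.36 ± 0.37) and ABCA1 (3.34 ± 0.69). On leaving out a library, ABCG1 ranged from 6.60 without PC3 sensitive replicate 2 to 9.92 without PC3 sensitive replicate 1, and ABCA1 from 2.63 without DU145 sensitive replicate 1 to 4.13 without PC3 sensitive replicate 1. INSIG1 (2.39) ranged from 1.76 without DU145 sensitive replicate 2 to 3.10 without DU145 resistant replicate 2, and DHCR7 (1.93) was at 1.33 without PC3 resistant replicate 1, all still called. Among the transcription factors they were 2.77 ± 0.35 for SREBF1 and 2.65 ± 0.34 for SREBF2, and among the enzymes 2.59 ± 0.36 for IDI1 and 2.56 ± 0.29 for MVD. SCARB1, lower in both lines, differed by 1.77 ± 0.33, since it fell less in PC3, and TM7SF2 by 0.83 ± 0.29. SC5D, higher in both, did not pass (0.57 ± 0.23, adjusted p = 0.078). The differences below 0 were those of INSIG2 (-0.66 ± 0.23) and SOAT1 (-0.70 ± 0.22). Calls of a difference were lost under other settings for 5 members. That of MSMO1 was lost by DESeq2 (1.77, adjusted p = 0.126) and with a filter of 1 CPM in 4 libraries (1.84, adjusted p = 0.0545). That of INSIG2 was lost with no low count filter (-0.62, adjusted p = 0.11) and with the 1 CPM filter (-0.60, adjusted p = 0.0668), and that of GGPS1 with no low count filter (0.65, adjusted p = 0.0782). Leaving out a library ended all 5 in at least 1 case. GGPS1 then ranged from 0.56 to 0.64 without any library but DU145 resistant replicate 1, and INSIG2 from -0.79 to -0.52 without any but DU145 resistant replicate 1. TM7SF2 was at 0.91, 0.73 and 0.63 without DU145 sensitive replicate 1, DU145 sensitive replicate 2 and DU145 resistant replicate 1, and at 0.95, 0.71 and 0.68 without PC3 sensitive replicate 1, PC3 sensitive replicate 2 and PC3 resistant replicate 2. MSMO1 was at 0.98 without DU145 sensitive replicate 2, at 1.33 without DU145 resistant replicate 1, at 1.76 and 1.78 without PC3 sensitive replicates 1 and 2, and at 1.25 without PC3 resistant replicate 1. SOAT1 was at -0.55 without DU145 sensitive replicate 2, at -0.54 without DU145 resistant replicate 1, at -0.73 and -0.67 without PC3 sensitive replicates 1 and 2, and at -0.56 without PC3 resistant replicate 2.

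Levels were also summed over the genes of a role, with no test. The 19 synthesis enzymes summed to 1260 and 1330 CPM in DU145 resistant libraries, against 1800 and 2360 CPM in sensitive libraries, and to 2030 and 1250 CPM in PC3 resistant libraries, against 1240 and 1190 CPM in sensitive libraries. PC3 resistant replicate 2 therefore lay close to the sensitive libraries in this sum, while the DU145 groups were apart. The 5 SREBP control genes summed to 270 and 381 CPM in DU145 resistant libraries, against 569 and 703 CPM in sensitive libraries, and to 553 and 460 CPM in PC3 resistant libraries, against 296 and 263 CPM in sensitive libraries. The 4 uptake and transport genes summed to 260 and 318 CPM in DU145 resistant libraries, against 732 and 668 CPM in sensitive libraries, and to 302 and 290 CPM in PC3 resistant libraries, against 283 and 302 CPM in sensitive libraries. The fall of this sum in DU145 was carried mainly by SCARB1 and NPC1, and in PC3 the groups overlapped in this sum. MYLIP, ABCA1 and ABCG1 summed to 69.0 and 116 CPM in PC3 resistant libraries, against 16.9 and 7.55 CPM in sensitive libraries, and to 18.0 and 24.3 CPM in DU145 resistant libraries, against 69.6 and 44.3 CPM in sensitive libraries.

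**Figure D3:**
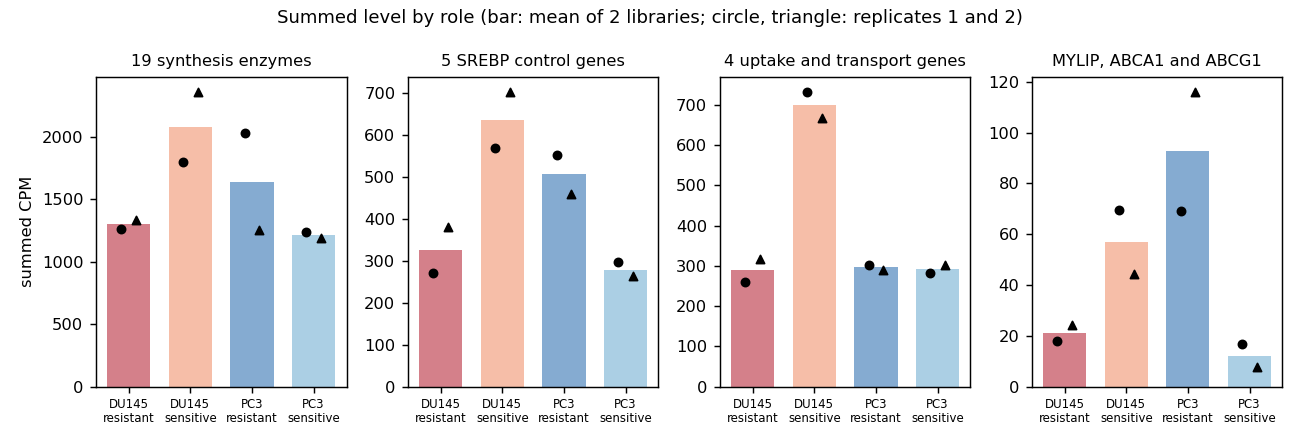
Summed CPM of the genes of 4 roles, with bars at the mean of 2 libraries, circles for replicate 1 and triangles for replicate 2, for DU145 resistant, DU145 sensitive, PC3 resistant and PC3 sensitive cells. The synthesis enzymes of PC3 resistant cells lie at 2030 and 1250 CPM, so that replicate 2 is close to the PC3 sensitive libraries at 1240 and 1190 CPM.

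The 2 PC3 resistant libraries differed for the synthesis enzymes more than for genes at large, and mostly in a shared direction. In PC3 resistant cells 17 of the 19 enzymes were higher in replicate 1 than in replicate 2, with a median log2 ratio of replicate 2 over replicate 1 of -0.64, against 0.00 over all genes tested. The 19 enzymes had a median absolute log2 ratio of 0.64 in that group, against 0.24 over all genes. In DU145 sensitive cells 16 of 19 were higher in replicate 2 (median 0.21), and in DU145 resistant cells 14 of 19 (median 0.20). In PC3 sensitive cells 12 of 19 were higher in replicate 1, with a median of -0.04. Set against the mean of the sensitive libraries, the median member was at 0.67 in PC3 resistant replicate 1 and at 0.05 in replicate 2, and at -0.98 and -0.61 in DU145 resistant replicates 1 and 2. The PC3 rises of MVD, SC5D, SREBF2, MYLIP, STARD4 and ABCG1 stood in each library and under each alternative run, as did the PC3 fall of TM7SF2. In DU145 the same held for the falls of IDI1, FDFT1, LSS, TM7SF2, SREBF1, SREBF2, MYLIP and SCARB1 and for the rise of SC5D.

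**Figure D4:**
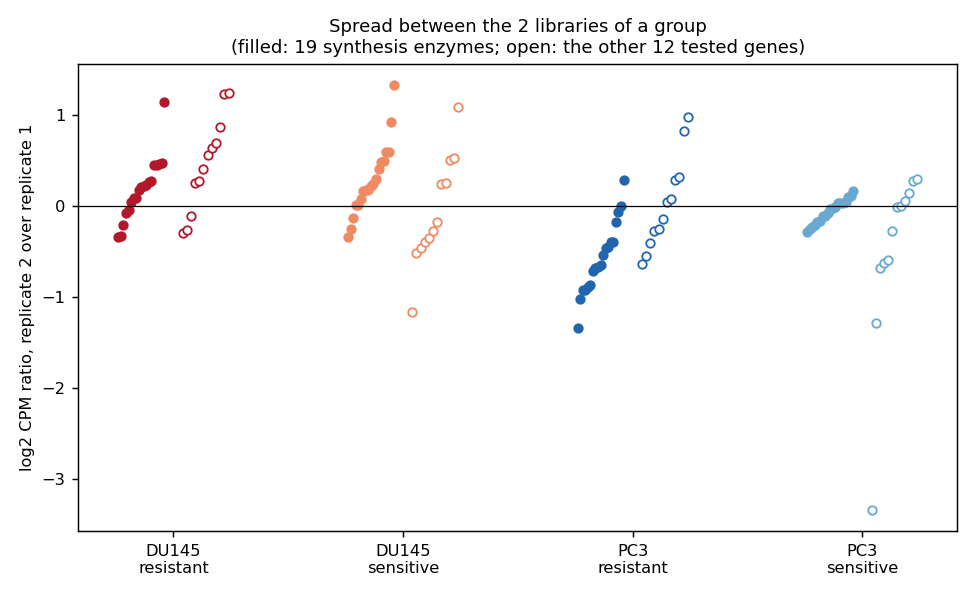
Log2 ratio of the CPM of replicate 2 over replicate 1 on the y axis for each of 31 genes in each group, with filled points for the 19 synthesis enzymes and open points for the other 12 tested genes, sorted by value. In PC3 resistant cells 17 of the 19 filled points lie below 0.

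The sensitive cells of the 2 lines already differed before resistance was compared. PC3 sensitive cells were lower than DU145 sensitive cells for 17 of 31 members, against 29.2% of all genes, and higher for 2, against 28.6% of all genes, with a median of -0.92, against -0.03 over all genes. SREBF2 was at 75.2 and 74.4 CPM in PC3 sensitive libraries, against 255 and 367 CPM in DU145 sensitive libraries (-2.06 ± 0.25, adjusted p = 4.34e-05). MYLIP was at 4.87 and 3.14 CPM in PC3 sensitive libraries, against 37.0 and 29.1 CPM in DU145 sensitive libraries (-3.04 ± 0.26), and STARD4 at 10.4 and 11.5 CPM in PC3 sensitive libraries, against 46.7 and 66.2 CPM in DU145 sensitive libraries (-2.36 ± 0.27). FDFT1 (-2.66 ± 0.28) and SCARB1 (-1.88 ± 0.24) were lower in PC3 sensitive cells too. NSDHL, at 48.0 and 53.7 CPM in PC3 sensitive libraries, against 19.9 and 20.1 CPM in DU145 sensitive libraries (1.35 ± 0.17), and EBP (0.90 ± 0.17) were the members higher in PC3 sensitive cells. This comparison shares its libraries with the 2 resistance comparisons. Without DU145 sensitive replicate 2, or without PC3 sensitive replicate 2, 12 members were lower in PC3 sensitive cells.

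Levels were compared between genes as CPM per kilobase of merged exons in GENCODE 44, averaged over the 2 libraries of a group. In DU145 resistant cells PMVK (42.8), LBR (40.4) and FDPS (38.8) were highest, against FDPS (60.8), FDFT1 (58.7) and SQLE (44.4) in DU145 sensitive cells. In PC3 resistant cells SQLE (48.3), EBP (41.9) and FDPS (41.8) were highest, against EBP (52.8), PMVK (51.1) and FDPS (49.4) in PC3 sensitive cells. FDPS was thus among the 3 highest in each group. IDI1 held rank 20 of 32 in DU145 resistant cells, at 7.48 CPM per kilobase, against rank 5 in DU145 sensitive cells, at 39.6. ABCG1 held rank 24 in PC3 resistant cells, at 7.44 CPM per kilobase, against rank 31 in PC3 sensitive cells, at 0.148. NPC1L1 was lowest in all 4 groups, at 0.0268 to 0.0418 CPM per kilobase.

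Neighbouring genes were counted over tested genes within 2 Mb on either side, a window chosen after the changes were seen, and the members named here were picked after the counts were seen. The shares over all genes were 15.4% lower against 12.4% higher for DU145, while for PC3 18.6% rose and 17.0% fell. In DU145, 7 of 8 neighbours (87.5%) of IDI1 (chr10:1039152-1049119, minus strand, hg38) were lower in resistant cells, with a median of -1.31, beside -2.40 for IDI1. Around SC5D (chr11:121292681-121313410, plus strand), 13 of 23 neighbours (56.5%) were higher in DU145 resistant cells (median 1.12, beside 0.77 for SC5D) and 10 of 23 (43.5%) in PC3 resistant cells (median 0.46, beside 1.35). In DU145 the median of the neighbours was thus above the change of SC5D itself, and for IDI1 it was nearer to 0 than the change of the gene. In PC3 resistant cells, 32 of 68 neighbours (47.1%) of MVD (chr16:88651935-88663161, minus strand) were higher (median 0.60), 35 of 73 neighbours (47.9%) of SREBF2 (chr22:41833105-41907306, plus strand) were higher (median 0.64), and 21 of 82 neighbours (25.6%) of SREBF1 (chr17:17810399-17837002, minus strand) were higher and 3 lower (median 0.46). These medians were below the changes of MVD (1.68), SREBF2 (1.43) and SREBF1 (1.08) in PC3. Around MVK (chr12:109573255-109598125, plus strand), 29 of 48 neighbours (60.4%) were lower in PC3 resistant cells (median -0.84), while MVK was at -0.15. Other members that were not called in PC3 also had many called neighbours there, with 13 of 31 (41.9%) higher around FDFT1, 28 of 58 (48.3%) lower around NSDHL, and 52 of 131 (39.7%) and 53 of 132 (40.2%) lower around PMVK and FDPS, whose windows overlap. Neighbours of ABCG1 had a median of -0.32, of STARD4 0.34 and of MYLIP -0.06 in PC3, beside changes of 5.63, 2.85 and 2.31 for these genes. Gene copy number was not measured in these data, and its part was not tested.

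The strand setting of the counts is unknown, so reads of genes that overlap on opposite strands cannot be told apart. ACAT2 shares 454 exon bases with TCP1, MVK 225 with MMAB, GGPS1 138 with ARID4B, SREBF1 556 with RAI1 and NPC1 619 with C18orf8. The RAI1 counts were 485 and 642 in DU145 resistant libraries, against 663 and 653 in sensitive libraries, and 3125 and 2798 in PC3 resistant libraries, against 2049 and 1910 in sensitive libraries. The MMAB counts were 570 and 706 in DU145 resistant libraries, against 1362 and 1576 in sensitive libraries. In PC3 they were 2381 and 1396 in resistant libraries, against 1521 and 1458 in sensitive libraries. MMAB had more counts than MVK in every library, and its part in the values of MVK was not tested. TCP1 had 8130 to 21411 counts per library. HSD17B7P2, a near copy of HSD17B7, held counts equal to 38.1% of those of HSD17B7, so the value of HSD17B7 is uncertain, and pseudogenes of FDPS held at most 0.0588% of its counts each.

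Other genes of lipid supply were counted in 6 lists, to be read against the shares of all tested genes (in DU145 15.4% fell and 12.4% rose, and in PC3 18.6% rose and 17.0% fell). Of 21 tested genes of fatty acid synthesis and desaturation, the genes best known as targets of SREBP-1, 12 fell (57.1%) and 4 rose (19%) in DU145 (median -0.51), and in PC3 9 rose (42.9%) and 4 fell (19%, median 0.11). The 4 that rose in DU145 became 2 with the line fitted alone or with no low count filter and 1 to 4 on leaving out a library. The 9 that rose in PC3 became 4, 3 and 5 without PC3 sensitive replicate 1, PC3 sensitive replicate 2 and PC3 resistant replicate 1. SCD, the desaturase that makes oleate, was at 149 and 587 CPM in DU145 resistant libraries, against 1660 and 2630 CPM in sensitive libraries (-2.54 ± 0.53), and at 757 and 456 CPM in PC3 resistant libraries, against 270 and 175 CPM in sensitive libraries (1.45 ± 0.51, adjusted p = 0.0485). FASN, the fatty acid synthase, fell by 1.64 and FADS2, a desaturase of polyunsaturated fatty acids, by 1.93 on the log2 scale in DU145. MID1IP1, a partner of acetyl-CoA carboxylase, was at 74.3 and 69.5 CPM in PC3 resistant libraries, against 1.43 and 0.972 CPM in sensitive libraries (5.89 ± 0.26). SCD and MID1IP1 changes differed between the lines (3.99 ± 0.74 and 6.48 ± 0.32).

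Of 12 tested lipoprotein receptors and adaptors, 5 fell (41.7%) and 2 rose (16.7%) in DU145 (median -0.36), and in PC3 5 rose (41.7%) and 3 fell (25%, median -0.17). The 5 that fell in DU145 became 2 without DU145 sensitive replicate 2 or DU145 resistant replicate 2, and the 5 that rose in PC3 became 3 without PC3 sensitive replicate 2. VLDLR, a receptor for triglyceride-rich lipoproteins, was at 37.9 and 48.5 CPM in DU145 resistant libraries, against 94.7 and 125 CPM in sensitive libraries (-1.35 ± 0.21), and at 9.80 and 13.5 CPM in PC3 resistant libraries, against 0.731 and 0.454 CPM in sensitive libraries (4.28 ± 0.30). VLDLR thus went opposite ways in the lines (difference 5.63 ± 0.37). LRP1, a large endocytic receptor, changed by -1.14 ± 0.33 in DU145, and SORL1, a sorting receptor, by 1.37 ± 0.24 in PC3. LRP1 was at 78.3 and 111 CPM in PC3 resistant libraries, against 126 and 187 CPM in sensitive libraries. SORL1 was at 73.8 and 134 CPM in DU145 resistant libraries, against 47.9 and 47.3 CPM in sensitive libraries. Neither difference between the lines was called (0.42 ± 0.46 for LRP1 and 0.25 ± 0.33 for SORL1). Of 14 tested genes of LXR, oxysterols and sterol export, 3 fell (21.4%) and 11 were not called in DU145, and in PC3 4 rose (28.6%) and 3 fell (21.4%). The 3 that fell in DU145 became 1 without DU145 resistant replicate 1. LPCAT3, an LXR target that remodels phospholipids, rose in PC3 (1.12 ± 0.23), while NR1H3, which encodes LXR alpha itself, was lower there (-1.41 ± 0.26). The difference between the lines was called for LPCAT3 (1.73 ± 0.33) and not for NR1H3 (-0.78 ± 0.36).

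In the remaining lists, of 21 tested genes of SREBP processing and sterol-regulated degradation, 4 fell (19%) and 2 rose (9.52%) in DU145, near the shares over all genes, and in PC3 7 fell (33.3%) and 3 rose (14.3%). The 7 that fell in PC3 became 4 without any 1 of the 4 PC3 libraries. MBTPS1, the protease of the Golgi that makes the first cut in SREBP, was at 166 and 155 CPM in DU145 resistant libraries, against 286 and 298 CPM in sensitive libraries (-0.86 ± 0.13), and its change differed between the lines (1.62 ± 0.19). Of 21 tested genes of intracellular sterol transport and ester turnover, 4 fell (19%) and 2 rose (9.52%) in DU145, also near those shares, and in PC3 7 fell (33.3%) and 3 rose (14.3%). The 7 that fell in PC3 became 4, 3 and 4 without PC3 sensitive replicate 1, PC3 sensitive replicate 2 and PC3 resistant replicate 1. OSBPL5, a lipid transfer protein, fell in both lines (-1.46 ± 0.24 in DU145 and -1.92 ± 0.23 in PC3). NPC2, which hands cholesterol to NPC1 in lysosomes, changed by -1.01 ± 0.15 in DU145. In PC3 it was at 58.4 and 54.3 CPM in resistant libraries, against 111 and 110 CPM in sensitive libraries. The NPC2 difference between the lines was not called by edgeR (0.04 ± 0.21, adjusted p = 0.924). Of 19 genes that use isoprenoids after farnesyl diphosphate, 4 were higher (21.1%) and 2 lower (10.5%) in each line. In DU145 these became 1 and 1 with the line fitted alone or with no low count filter, and in PC3 the higher count was 1 to 4 on leaving out a library. In this list PGGT1B, a subunit of the enzyme that attaches geranylgeranyl groups, was higher in both (0.65 ± 0.14 in DU145 and 0.73 ± 0.14 in PC3).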

How the data were processed

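For each of 8 bulk RNA-seq libraries, prepared from total RNA by a SMART-seq method, the authors deposited a file of raw counts by gene. The submitters' processing notes name Bowtie and hg38. No version of Bowtie, counting tool, annotation or strand setting was found in the sources used here, and the paper's text describes single cells rather than these libraries. Sample labels gave the groups. GENCODE 44 held 56558 of the 60554 gene IDs and supplied exon lengths and positions. Low counts were removed with filterByExpr by group, and group means were fitted over all 8 libraries in edgeR 4.0.16 (R 4.3.3) with TMM factors of 0.9511 to 1.038. P-values are from edgeR's quasi-likelihood test, adjusted over 20238 genes by the Benjamini-Hochberg method, with a threshold of 0.05. The fit had a biological coefficient of variation of 17.1% and 4 residual degrees of freedom. A standard error is the size of the log2 fold change over the root of its F statistic. Libraries within a group differed by more than sampling noise (chi-square per degree of freedom 20.8 to 54.7). Alternatives were RLE scaling, DESeq2 1.42.0, leaving out the low count filter, requiring 1 CPM in 4 libraries, fitting each line alone, using the replicate number as a block, and dropping each library in turn, where a lone library is assumed to vary like the others. All 31 tested members are described. From each of the 6 further lists, up to 3 genes per line could be named, by size of change among called genes with at least 5 CPM, and some of these are not reported. The members and lists were chosen with earlier results of these data known.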

Additional observations from a re-analysis of the deposited data

Results flagged for a closer look

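The change in resistant cells differed between the lines, by edgeR's test of the PC3 change minus the DU145 change, for 19 members. Among the enzymes the difference on the log2 scale was 2.56 for MVD, 2.59 for IDI1, 0.62 for GGPS1, 1.74 for FDFT1, 1.57 for SQLE, 1.36 for LSS, 0.83 for TM7SF2, 1.77 for MSMO1 and 1.93 for DHCR7. Among the genes of SREBP control it was 2.39 for INSIG1, -0.66 for INSIG2, 2.77 for SREBF1 and 2.65 for SREBF2. It was 3.36 for STARD4 and 1.77 for SCARB1 among the genes of uptake and transport, and -0.70 for SOAT1. For the genes grouped here as LXR targets it was 3.71 for MYLIP, 3.34 for ABCA1 and 7.44 for ABCG1. Each difference rests on 2 libraries per group.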

How the results depend on the processing

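Of the calls reported, 9 of 19 in DU145, 7 of 14 in PC3, 14 of 19 differences between lines and 13 of 19 between the sensitive lines were kept under every alternative run. With 2 libraries per group, the counts moved mainly on leaving out a library. Shares of all genes called in the alternative runs are not given here, so counts of members in those runs show only how the calls moved. The members higher in DU145 then ranged from 1 to 2 and those lower from 9 to 17. In PC3 the members higher ranged from 6 to 13, those lower from 1 to 4, and the median from 0.05 to 0.67. For the difference between lines, the members below 0 ranged from 0 to 1 and the median from 0.97 to 1.66, and 1 member was below 0 with no low count filter and 1 with a filter of 1 CPM in 4 libraries. The sign turned on leaving out a library for members that were not called. These ranged in DU145 from -0.84 to 0.055 for HMGCS1, -0.17 to 0.12 for PMVK, -0.089 to 0.30 for LBR and -0.11 to 0.21 for SOAT1. In PC3 they ranged from -0.53 to 0.15 for MVK, -0.22 to 0.50 for IDI1, -0.19 to 0.67 for FDFT1, -0.025 to 0.65 for LSS, -0.24 to 0.68 for MSMO1 and -0.10 to 0.17 for INSIG2. The difference between lines ranged from -0.10 to 0.82 for ACAT2 and -0.13 to 0.27 for EBP, and PC3 sensitive against DU145 sensitive from -0.13 to 0.017 for SC5D and -0.24 to 0.033 for INSIG2. SCAP in PC3 was at 0.0068 with the filter of 1 CPM in 4 libraries. The cause of these shifts was not tested beyond the libraries left out.

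The labels number the libraries but do not say that a number pairs them, and deviations from the group means of same-numbered libraries correlated at 0.323 in DU145 and 0.0861 in PC3 across 20238 genes. With the replicate number as a block, 21 members were lower and 2 higher in DU145, and 14 were higher and 5 lower in PC3. ABCA1 lost its call in DU145 in this edgeR fit (-1.36, adjusted p = 0.0526). The share of all genes called in this fit is not given here, so the counts do not tell whether the added calls concern the members.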
